A study of Mus musculus with 10 samples.

Results

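The genes described here are 9 trophectoderm genes: the transcription factor genes Cdx2, Tead4, Gata3, Tfap2c, Ascl2, Elf5 and Hand1, and the keratin genes Krt8 and Krt18. Every probe set that the platform annotation gives 1 of these symbols alone was taken, which gave 19 of the 45101 probe sets on the array. Expression was measured on 10 arrays from the mouse embryonic stem cell line NG4. There were 2 arrays in each of 5 groups, transfected with siRNA against Socs3 (siSocs3), Sox17 (siSox17), Fbxw7 (siFbxw7) or Rnf31 (siRnf31), or with the non-targeting control siNonTarget. Cells of all groups, the control included, were placed in retinoic acid at transfection and collected 48 h later, so no undifferentiated or untransfected sample serves as a baseline. All groups rest on 1 cell line, and the labels do not say whether replicates were separate cultures; p-values measure the spread between these arrays, which may be technical.

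Trophectoderm is the outer epithelium of the blastocyst and gives rise to the placenta. In the mouse embryo the TEA-domain factor Tead4, with its coactivator Yap1, switches on Cdx2 and Gata3 in outer cells, and Cdx2 restrains Pou5f1 there. Embryonic stem cells derive from the inner cell mass and rarely make trophectoderm, but several of these genes have other uses: Cdx2 also acts in the posterior embryo, Tfap2c in naive pluripotent and germ cells, and Krt8 and Krt18 in most simple epithelia.

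Some facts about the arrays bear on every value below. The labelled cell type was checked on Pou5f1, which read between 11.10 and 12.63 on the log2 scale, and Sox2, which read between 10.97 and 11.57. Transcripts of these genes were thus present on every array. Nanog and Zfp42, further defining markers, differed by 1.54 ± 0.23 and 1.01 ± 0.18 (SE) between siSocs3 and siNonTarget, both higher in siSocs3. Where a group was transfected against a gene, that gene's own transcript was not called there (limma, adjusted p = 0.343 for Socs3, 0.99 for Sox17, 0.902 for Fbxw7 and 0.849 for Rnf31). Socs3 read 0.44 ± 0.24 on the log2 scale (SE) above siNonTarget on the arrays labelled siSocs3. Sox17 read 0.03 ± 0.54 above it on those labelled siSox17. Fbxw7 differed from siNonTarget by −0.25 ± 0.16 in siFbxw7, and Rnf31 by −0.40 ± 0.17 in siRnf31. Each was read from 1 probe set, and those of Socs3 and Sox17 are of a kind that can bind related transcripts. No probe set of the array was called in siSox17, siFbxw7 or siRnf31 against siNonTarget. A missing call there cannot show whether a transcript fell. The directions given below therefore rest on the labels, and siSocs3 below means the arrays labelled so, as does siSox17. On siFbxw7 replicate 1 and siNonTarget replicate 1 the beta-actin control probe set for the 3' end read 0.60 and 0.50 above that for the 5' end, against 0.21 to 0.29 on the other 8 arrays, a known sign of less intact RNA. For this difference they are called the high-actin arrays below. Values below are log2 intensities, differences are log2 differences with their standard error, and a probe set was called when its limma p, adjusted by Benjamini-Hochberg over 45037 probe sets, was under 0.05.

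The arrays labelled siSocs3 had higher levels of Ascl2, Tead4 and Tfap2c than siNonTarget. All 3 Ascl2 probe sets, 1 of 2 for Tead4 and 1 of 3 for Tfap2c were called, 5 of 19 in all, each higher. Of all tested probe sets 2.06% were called higher in this comparison. The 19 probe sets read only 9 genes, so counts over them, here and below, are not counts of independent genes. In a fit with 1 probe set a gene, Ascl2 alone of the 9 was called. Both siSocs3 arrays lay above both siNonTarget arrays for 13 of 19 probe sets, where 28.1% of all probe sets did so. The median difference over the 19 was 0.92, against 0.02 over all probe sets, and without siNonTarget replicate 1 it was 0.45, against 0.03. Without siNonTarget replicate 1, 0 of 19 were called in limma, a fit that takes the spread of the lone control array from the other groups, and without both high-actin arrays 2 were, both of Ascl2. Without either siSocs3 array 0 were called, and without either siSox17 array, which moves the shared estimate of spread, 2 were. The number of calls over all probe sets also moved widely with the array left out, as given in the last section. A call lost in such a fit, here or in the lists below, is therefore no result about these genes alone. In these bulk samples more cells that express a gene and more RNA per cell cannot be told apart.

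Ascl2 encodes a basic helix-loop-helix factor that maintains trophoblast progenitors of the placenta. Its brightest probe set read 7.12 and 6.90 on the siSocs3 arrays, 6.35 and 6.12 on siSox17, 5.24 and 6.08 on siFbxw7, 6.11 and 5.83 on siRnf31, and 5.94 and 5.79 on siNonTarget. The 2 siSocs3 arrays were the highest of the 10, and this held for each of the 3 Ascl2 probe sets. The brightest and 1 other of these are of a kind that can bind related transcripts. The 2 dimmer probe sets read 4.36 and 4.85, and 3.74 and 4.08, on siNonTarget. Their means over all arrays lay at percentiles 44.9 and 33.5 of tested probe sets. The means of the brightest were 7.01 ± 0.16 in siSocs3 and 5.86 ± 0.10 in siNonTarget (SD, n = 2 each). The difference was 1.15 ± 0.24 (adjusted p = 0.0346), or 2.21-fold, and the other 2 probe sets gave 1.69 ± 0.29 (adjusted p = 0.018) and 1.57 ± 0.32 (adjusted p = 0.0298). With siNonTarget replicate 1 left out these differences were 1.22, 1.45 and 1.40, and none was called (limma, adjusted p = 0.116, 0.097 and 0.14). With either siSocs3 array left out none was called (adjusted p = 0.0858 to 0.23).

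Tfap2c encodes AP-2 gamma, a factor of trophectoderm and of naive pluripotent cells. The called probe set read 8.13 and 8.24 on the siSocs3 arrays, 7.36 and 7.33 on siSox17, 6.72 and 7.07 on siFbxw7, 7.91 and 7.60 on siRnf31, and 7.05 and 7.55 on siNonTarget. The siSocs3 arrays were again the highest, and siFbxw7 gave the lowest array of all. The difference of siSocs3 from siNonTarget was 0.88 ± 0.19 (adjusted p = 0.0356), 1.84-fold. The other 2 probe sets were close in size, 0.90 ± 0.28 and 0.87 ± 0.28, the first of a kind that can bind related transcripts. The siNonTarget replicates differed by more in these 2, and they were not called (adjusted p = 0.102 and 0.113). The called difference was 0.63 (adjusted p = 0.158) when siNonTarget replicate 1 was left out, and the other 2 were 0.47 and 0.45.

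Tead4 encodes the TEA-domain factor upstream of Cdx2 in the embryo. Its called probe set read 6.13 and 5.94 on the siSocs3 arrays, 5.40 and 5.16 on siSox17, 4.69 and 5.23 on siFbxw7, 5.45 and 4.47 on siRnf31, and 4.32 and 4.59 on siNonTarget. Both siNonTarget arrays were lower than all arrays of siSocs3, siSox17 and siFbxw7, while siRnf31 replicates lay 0.97 apart and replicate 2 lay within the control range. The difference of siSocs3 from siNonTarget was 1.58 ± 0.30 (adjusted p = 0.0241), 2.98-fold. The brighter Tead4 probe set gave 0.89 ± 0.36 and was not called (adjusted p = 0.202). Leaving out siNonTarget replicate 1 gave 1.45 for the called probe set (adjusted p = 0.119).

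Cdx2, the caudal-type homeobox gene that specifies trophectoderm, was not called in any comparison over all 10 arrays. Its brighter probe set read 7.65 and 8.29 on the siSocs3 arrays, 7.92 and 7.76 on siSox17, 6.56 and 7.64 on siFbxw7, 8.18 and 7.46 on siRnf31, and 6.08 and 6.96 on siNonTarget. All arrays of siSocs3, siSox17 and siRnf31 lay above both siNonTarget arrays, and siFbxw7 replicate 1 lay between them. The differences from siNonTarget were 1.45 ± 0.42 in siSocs3 (adjusted p = 0.0849), 1.33 ± 0.42 in siSox17 (adjusted p = 0.267), 0.58 ± 0.42 in siFbxw7 (adjusted p = 0.907) and 1.30 ± 0.42 in siRnf31 (adjusted p = 0.849). These 4 differences share the same 2 control arrays, which were 0.88 apart. Against siNonTarget replicate 2 alone they were 1.01, 0.88, 0.14 and 0.86. Cdx2 gained calls in other fits: without siFbxw7 replicate 1, a high-actin array outside this comparison, both probe sets were called in siSocs3 against siNonTarget (adjusted p = 0.0447 for the brighter and 0.0223 for the dimmer). Both were also called there without siFbxw7 replicate 2, and the dimmer 1 in a fit of the 2 groups alone (adjusted p = 0.0426). Without siFbxw7 replicate 2 the dimmer probe set was called against siFbxw7 as well, at 1.41 (adjusted p = 0.0228). The dimmer probe set gave 0.92 ± 0.28 in siSocs3 (adjusted p = 0.0992), and its other differences lay between −0.01 and 0.53.

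Gata3, Hand1 and Elf5 were not called in any comparison. Gata3, a zinc-finger factor that acts beside Cdx2 in outer cells, read 7.27 and 7.52 on the siSocs3 arrays, 8.01 and 7.54 on siSox17, 7.08 and 7.29 on siFbxw7, 7.41 and 7.71 on siRnf31, and 6.84 and 7.95 on siNonTarget. The 2 siNonTarget arrays span nearly the whole range of the gene, and the difference in siSocs3 was 0.00 ± 0.32, or −0.56 (adjusted p = 0.286) without siNonTarget replicate 1. Hand1, a factor of trophoblast giant cells, varied little: its brighter probe set lay between 6.33 and 6.90 on the 10 arrays and differed by 0.34 ± 0.11 in siSocs3 (adjusted p = 0.112). Elf5, an ETS factor that sustains trophoblast stem cells and is silenced by methylation in embryonic stem cells, read between 3.41 and 3.96 over both probe sets and all arrays. Those means lay at percentiles 17.5 and 18 of all tested probe sets, near the bottom of the range, where RMA compresses differences; a change in Elf5 may not be detectable at this signal.

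**Figure D1:**
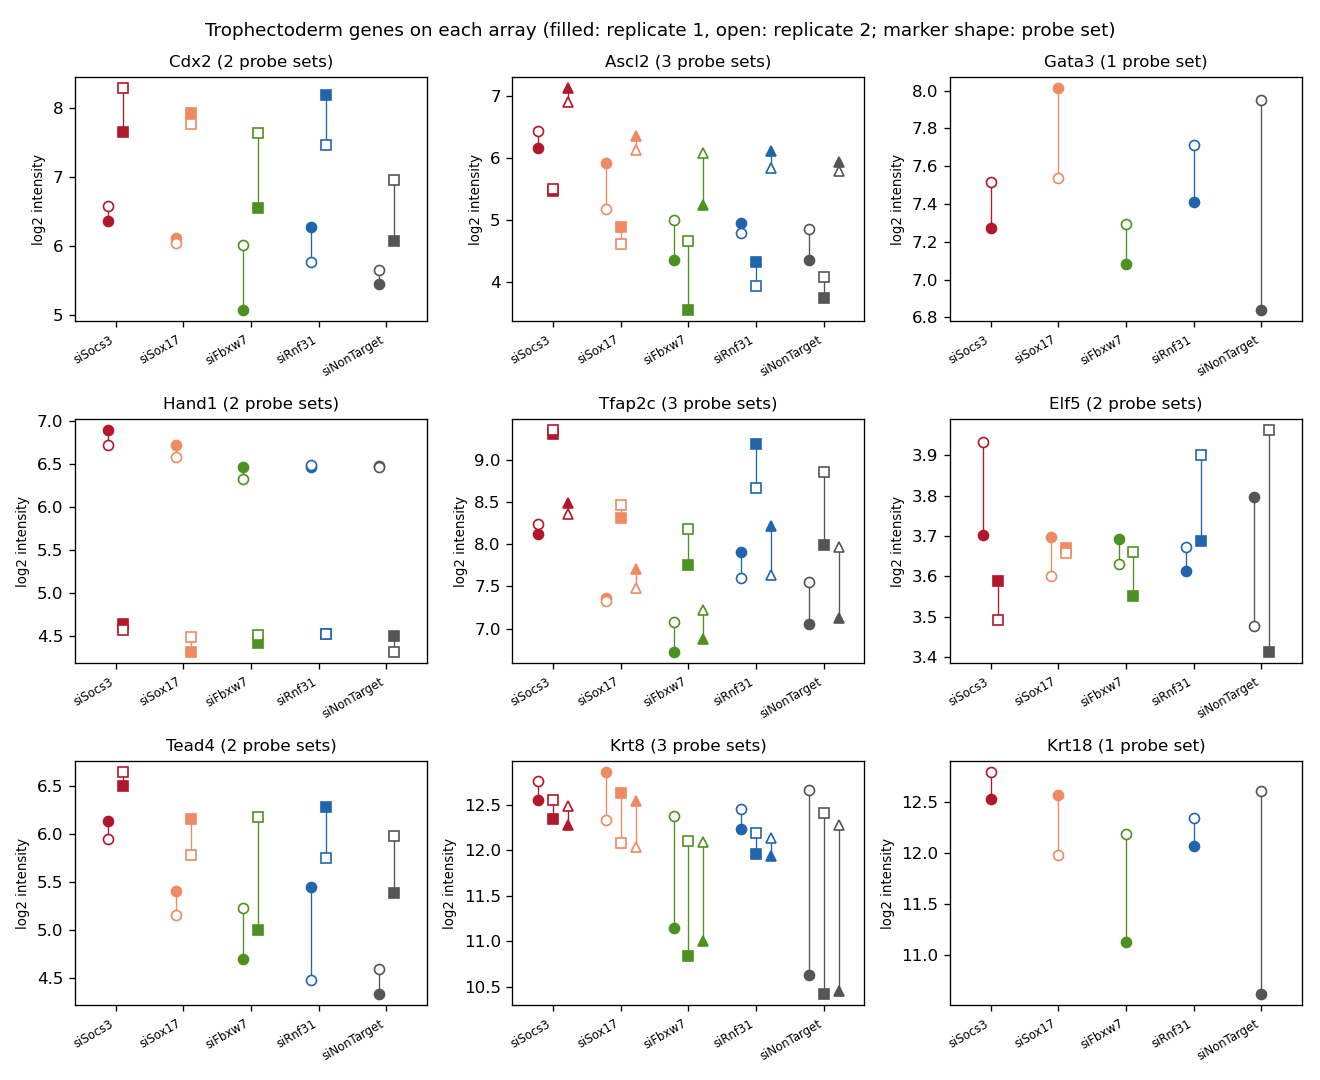
Log2 intensity (y axis, 1 panel a gene with its own scale) of every probe set of the 9 genes on each of the 10 arrays, by group (x axis); filled markers are replicate 1, open markers replicate 2, marker shapes are probe sets and lines join the 2 replicates. The siSocs3 arrays are highest for Ascl2, and siFbxw7 replicate 1 and siNonTarget replicate 1 are lowest for Krt8 and Krt18, at 11.15 and 10.63 for the brightest Krt8 probe set.

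The promoters of Ascl2, called in all of its probe sets, and of Cdx2, the lineage's defining factor, are shown as the 250 bases before the gene start, 5' to 3' on the gene's strand. Of the 9 genes, 6 had an entry in the RefSeq promoter table of GRCm38.p6.
Ascl2 (chr7:142969265-142969514, minus strand): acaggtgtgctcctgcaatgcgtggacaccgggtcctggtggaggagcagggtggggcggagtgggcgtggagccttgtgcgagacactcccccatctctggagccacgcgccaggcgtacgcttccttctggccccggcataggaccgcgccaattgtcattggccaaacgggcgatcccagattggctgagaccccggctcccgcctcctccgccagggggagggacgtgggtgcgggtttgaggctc
Cdx2 (chr5:147307250-147307499, minus strand): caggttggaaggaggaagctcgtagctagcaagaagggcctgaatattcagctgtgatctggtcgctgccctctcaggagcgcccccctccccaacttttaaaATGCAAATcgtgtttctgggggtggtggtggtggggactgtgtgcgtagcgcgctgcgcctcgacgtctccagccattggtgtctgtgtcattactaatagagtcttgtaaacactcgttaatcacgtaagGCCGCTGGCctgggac
Capitals mark matches, on either strand, to any of 7 motifs, given here with the share of 27025 promoters of this length that hold each. The TEAD motif GGAATG was in 12.6% of them and the GATA motif AGATAA in 10.3%. AP-2 factors such as Tfap2c were searched for as GCCNNNGGC, found in 13.6%, and CDX factors as TTTATNG, found in 10.2%. The others were AP-1 as TGANTCA in 6.87%, STAT as TTCNNNGAA in 7.18% and the octamer of POU factors, ATGCAAAT, in 1.61%. The Cdx2 window held the octamer 147 bases before the start and an AP-2 match 16 bases before it. No match overlapped another, and none of these letters was in the Ascl2 window.

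In siSox17 and siRnf31 no probe set was called. Of the 19 estimates 16 and 19 were above 0, where 51.3% and 50.2% of all probe sets were. Both groups were set against the same 2 control arrays, and without siNonTarget replicate 1 the counts were 10 and 12, against 52.7% and 51.5% of all probe sets. In siSox17 against siNonTarget 0 of 19 passed in limma, as did 0% of all probe sets (5754 of them at an unadjusted p under 0.05), and 4 of the 19 had an unadjusted p under 0.05. Those 4 were Ascl2 at 0.94 ± 0.29 and 0.83 ± 0.32, the brighter Cdx2 probe set and Tead4 at 0.82 ± 0.30 (adjusted p = 0.304). Both siSox17 arrays lay above both control arrays for 7 of 19, where 22.3% of all probe sets did so. The 3 Tfap2c probe sets gave −0.03 to 0.04 in siSox17, with standard errors of 0.19 to 0.28.

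In siRnf31 against siNonTarget 0 of 19 passed in limma, and 0% of all probe sets, of which 2487 had an unadjusted p under 0.05. Among the 19 an unadjusted p under 0.05 was reached by 2, the brighter Cdx2 probe set and Tfap2c at 0.45 ± 0.19 (adjusted p = 0.849). The arrays did not overlap, upward, for 4 of 19, against 17.0% of all probe sets. Ascl2 differed by 0.10 to 0.26 there, within its standard errors of 0.24 to 0.32.

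In siFbxw7 against siNonTarget 0 of 19 passed in limma, 0% of all probe sets passed (2446 had an unadjusted p under 0.05), and 0 of 19 had an unadjusted p under 0.05. The 19 differences lay between −0.50 and 0.58 with a median of 0.02. Without siNonTarget replicate 1 the median was −0.36, and 5 of 19 were above 0, against 53.0% of all probe sets. That fit kept siFbxw7 replicate 1, the other high-actin array, and the part of RNA quality in it was not tested. The arrays did not overlap for 1, a Tead4 probe set, against 17.3% of all probe sets upward. Tfap2c gave −0.41 ± 0.19, −0.46 ± 0.28 and −0.50 ± 0.28 in its 3 probe sets (adjusted p = 0.899, 0.9 and 0.899). These estimates share siNonTarget with the other comparisons.

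**Figure D2:**
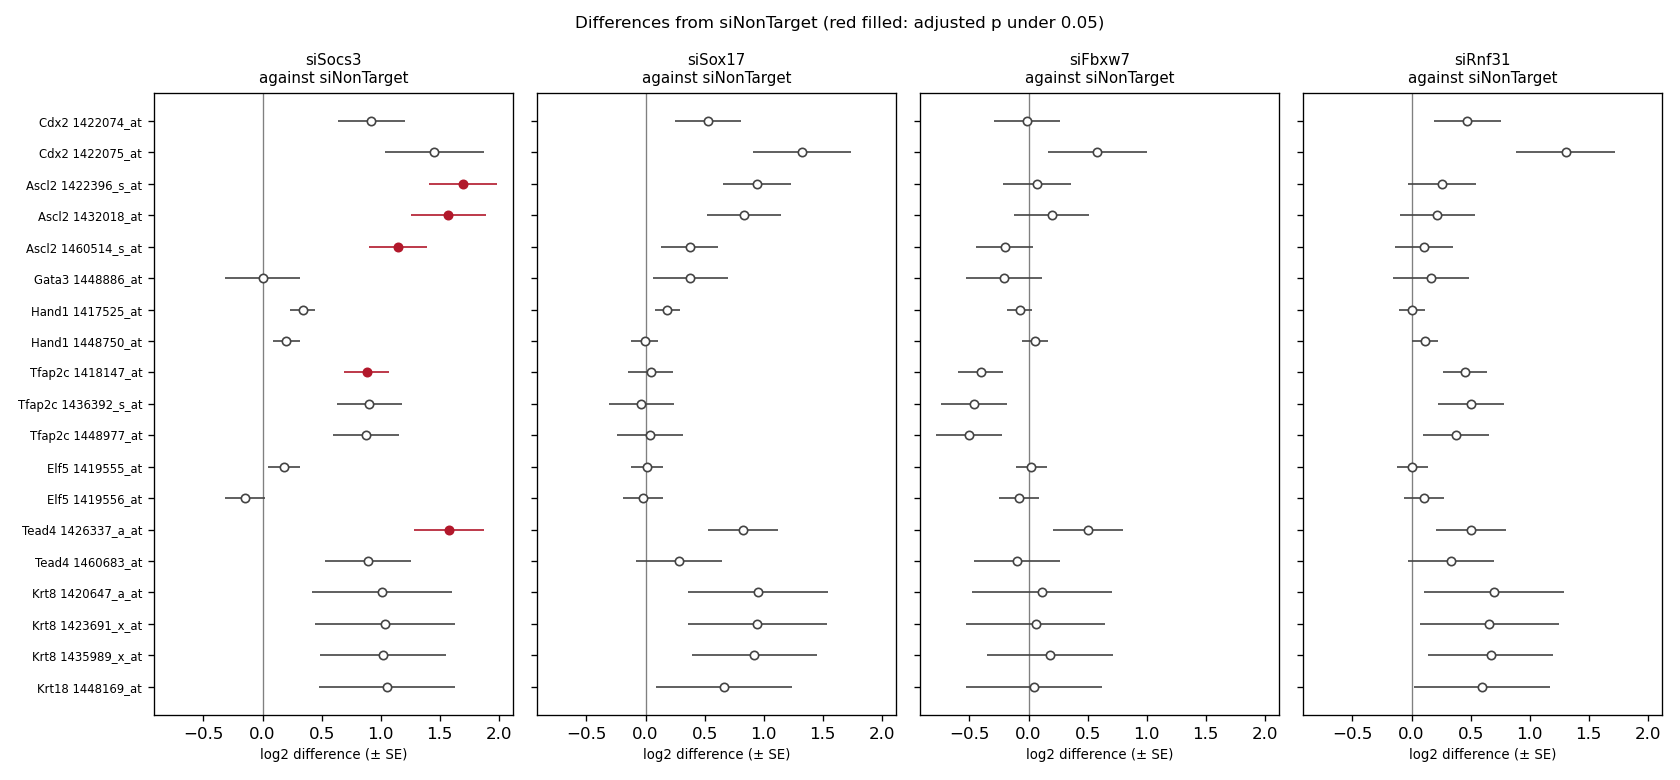
Log2 difference from siNonTarget (x axis, ± SE from limma, 2 arrays a group) for each of the 19 probe sets (y axis), 1 panel a siRNA group; red filled points have an adjusted p under 0.05. The 5 red points, all in siSocs3, are 3 for Ascl2 and 1 each for Tfap2c and Tead4.

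The siSocs3 arrays were also set directly against each of the other siRNA groups, which leaves the siNonTarget levels out of the difference. Against siFbxw7, 5 of 19 probe sets were called, all higher, where 1.38% of all probe sets were called higher. They were all 3 of Tfap2c and 2 of 3 of Ascl2. Tfap2c was higher by 1.29 ± 0.19 (adjusted p = 0.0133), 1.36 ± 0.28 (adjusted p = 0.048) and 1.37 ± 0.28 (adjusted p = 0.0472). Ascl2 was higher by 1.62 ± 0.29 (adjusted p = 0.0275) and 1.35 ± 0.24 (adjusted p = 0.0298), and its remaining probe set gave 1.38 ± 0.32 (adjusted p = 0.0701). The siSocs3 arrays lay above both siFbxw7 arrays for 17 of 19, against 22.4% of all probe sets. Without siFbxw7 replicate 1, the array with the largest actin difference, 0 of 19 were called in limma, Tfap2c gave 1.11 to 1.2 (adjusted p = 0.097 to 0.279) and Ascl2 gave 1.31 and 0.93 in the probe sets called before. Without either siSocs3 array 0 were called, without either siSox17 array 2 and without either siRnf31 array 3.

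Against siSox17 and siRnf31, 0 of 19 probe sets were called in limma, where 0.944% and 0.846% of all probe sets were called higher. An unadjusted p under 0.05 was reached by 7 against siSox17 and by 5 against siRnf31, where 13.8% and 14.0% of all probe sets reached it. Against siSox17 the smallest p belonged to Tfap2c at 0.84 ± 0.19 (adjusted p = 0.0792), and Ascl2 gave 0.74 to 0.77 in its 3 probe sets. Against siRnf31 Ascl2 gave 1.04 ± 0.24, 1.35 ± 0.32 and 1.44 ± 0.29 (adjusted p = 0.0958, 0.0958 and 0.0601), and Tfap2c 0.40 to 0.50. The ordering of groups for Tfap2c thus ran from siSocs3 through siRnf31 (means 8.18 and 7.76 in the called probe set) to siSox17 and siNonTarget (7.35 and 7.30) and siFbxw7 (6.90). The neighbours siRnf31 and siSocs3 did not differ past the test (0.43 ± 0.19, adjusted p = 0.361), while siSox17 and siNonTarget were 0.04 ± 0.19 apart. The arrays did not overlap, upward, for 12 of 19 against siSox17, where 25.7% of all probe sets did so, and for 16 of 19 against siRnf31, where 25.5% did so. Downward they did not overlap for 2 of 19 against siSox17, Gata3 and an Elf5 probe set, where 24.0% of all probe sets did so, and for 1 of 19 against siRnf31, the same Elf5 probe set, where 22.4% did so. The 4 comparisons of siSocs3 share its 2 arrays.

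**Figure D3:**
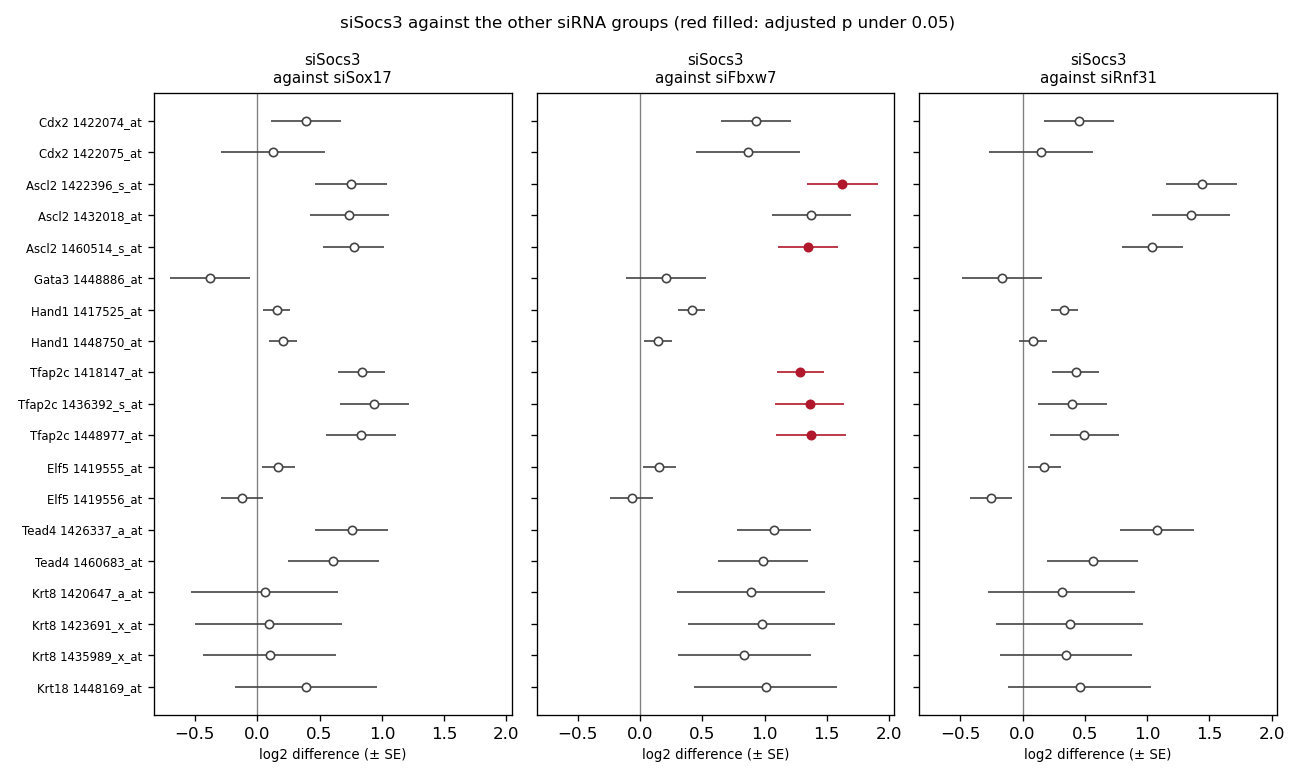
Log2 difference of siSocs3 from siSox17, siFbxw7 and siRnf31 (x axis, ± SE from limma, 2 arrays a group) for each of the 19 probe sets (y axis), 1 panel a comparison; red filled points have an adjusted p under 0.05. The red points are 2 for Ascl2 and 3 for Tfap2c, all against siFbxw7, and most keratin estimates lie near 0 against siSox17.

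Krt8 and Krt18 varied in parallel over the arrays, and the lowest values of both came from 1 siFbxw7 and 1 siNonTarget array. Krt8 is a type II keratin that pairs with the type I keratin Krt18 to build the first intermediate filaments of the embryo's epithelia. The brightest Krt8 probe set read 12.55 and 12.76 on the siSocs3 arrays, 12.86 and 12.34 on siSox17, 11.15 and 12.38 on siFbxw7, 12.23 and 12.45 on siRnf31, and 10.63 and 12.67 on siNonTarget. Krt18 read 12.54 and 12.80 on siSocs3, 12.57 and 11.98 on siSox17, 11.12 and 12.19 on siFbxw7, 12.08 and 12.34 on siRnf31, and 10.61 and 12.61 on siNonTarget. For both genes 8 arrays lay within about 1 log2 unit and the first replicates of siFbxw7 and siNonTarget lay below all of them. These are the high-actin arrays, and the part of RNA quality in the keratin levels was not tested.

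The spread within groups set the limit for the keratins. The siNonTarget replicates differed by 2.04 in Krt8 and 2.0 in Krt18, gaps reached by 0.091% and 0.107% of all probe sets between those arrays. The siFbxw7 replicates differed by 1.23 and 1.07. The difference of siSocs3 from siNonTarget was 1.01 ± 0.59 for Krt8 (adjusted p = 0.376) and 1.05 ± 0.57 for Krt18 (adjusted p = 0.337), and neither was called. Against siNonTarget replicate 2 alone these were −0.01 and 0.05, and against replicate 1 alone they were 2.03 and 2.06, where Krt18 was called (adjusted p = 0.0448). Of the other 2 Krt8 probe sets, both of a kind that can bind related transcripts, 1 was also called there (1.93, adjusted p = 0.0487).

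The low level on those arrays was not limited to the keratins. For 13 of the 19 probe sets both arrays lay below all of the other 8, and this was so for 8.50% of all probe sets. The 13 were all probe sets of Cdx2, Gata3, Tfap2c, Krt8 and Krt18, with 1 of 2 for Tead4 and 2 of 3 for Ascl2. This count describes arrays set apart by their actin values, and is no comparison of siRNA groups. Gapdh, a further control transcript, showed 3' to 5' differences of 0.25 and 0.18 on these arrays, against −0.06 to 0.03 on the others. Marker sums of some other cell types, but not of all, also set siFbxw7 replicate 1 and siNonTarget replicate 1 apart. The fibroblast sum was 6243 and 5349 on them, against 7514 to 15486 on the other 8, and the surface ectoderm sum was 479 and 468, against 629 to 1053. The neural sum was 3969 and 4661 on them, against 1251 to 3620 on the others, and the primitive streak sum 831 and 780, against 948 to 1220. The pluripotency sum, 33431 and 32753, lay within the range of the others, 29479 to 54723. This was also so for the extraembryonic endoderm and posterior sums. The part of these cell types in the keratin levels was not tested.

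**Figure D4:**
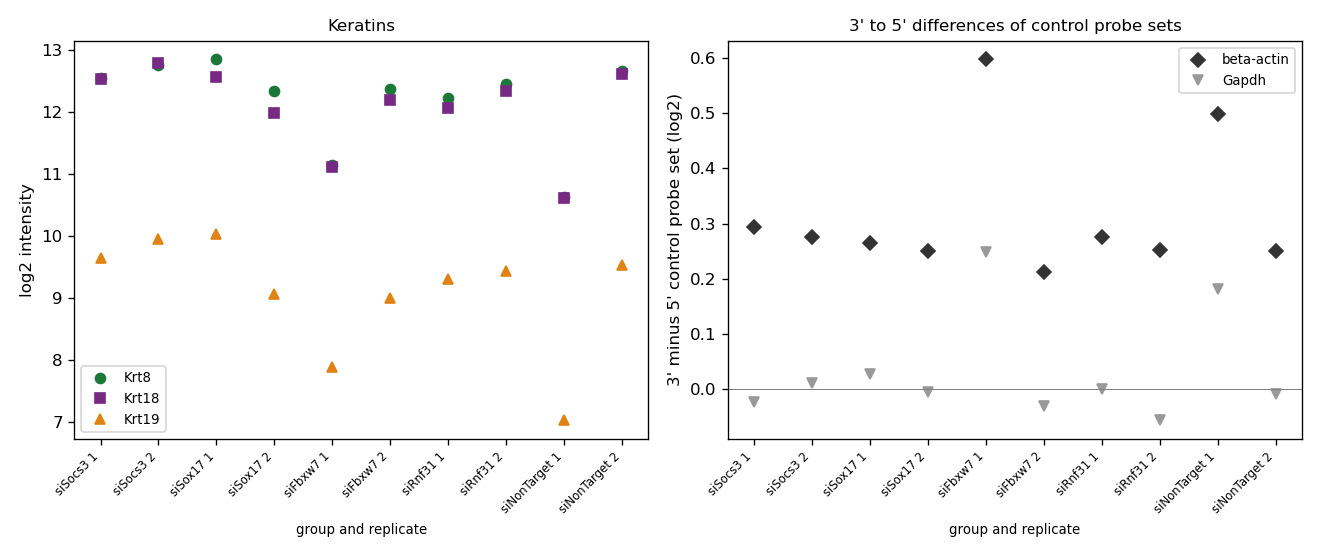
Left, log2 intensity (y axis) of the brightest probe sets of Krt8, Krt18 and Krt19 on each array (x axis); right, log2 difference between the 3' and 5' control probe sets of beta-actin and Gapdh on the same arrays. The 2 arrays with actin differences of 0.60 and 0.50 are those with the lowest keratin values.

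Krt8 and Krt18 are neighbours on chromosome 15, with gene starts 23874 bases apart and transcription running away from each other. Their promoters, the 250 bases before each start on the gene's strand, are shown because the pair varied in parallel.
Krt8 (chr15:102004343-102004592, minus strand): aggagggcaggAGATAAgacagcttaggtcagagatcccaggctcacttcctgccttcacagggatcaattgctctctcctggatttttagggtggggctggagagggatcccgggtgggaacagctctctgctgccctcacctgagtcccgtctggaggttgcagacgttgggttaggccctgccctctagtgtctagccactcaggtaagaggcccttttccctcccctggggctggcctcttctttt
Krt18 (chr15:102027966-102028215, plus strand): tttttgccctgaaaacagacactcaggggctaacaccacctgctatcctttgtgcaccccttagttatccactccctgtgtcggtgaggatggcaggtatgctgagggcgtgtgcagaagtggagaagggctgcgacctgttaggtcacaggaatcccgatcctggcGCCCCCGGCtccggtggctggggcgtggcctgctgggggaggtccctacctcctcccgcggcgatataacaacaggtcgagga
Capitals mark matches to the 7 motifs given above for Ascl2 and Cdx2. Krt8 held a GATA match 239 bases before its start and Krt18 an AP-2 match 83 bases before its start. The windows shared none of the motifs searched.

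The genes whose log2 values followed Krt8 most closely over the 10 arrays, among 14240 probe sets with 1 symbol and a mean over 7, were Krt18 (Pearson r = 0.98), Krt19 (0.98), Cpne8 (0.98), Acta1 (0.97) and Pdcl3 (0.97). Krt19 is another type I keratin of simple epithelia, and Acta1 encodes skeletal muscle actin. For Cdx2 they were Aen (0.99), Fam117a (0.98), Ppcs (0.97), Dhx16 (0.97) and Gfer (0.96). These correlations run over 10 arrays that differ both in siRNA group and in the actin sign of RNA quality. The correlations with Krt8 rest mainly on 2 low arrays. The same 2 arrays were the lowest for the Cdx2 probe set, at 6.08 and 6.56, against 6.96 to 8.29 on the others.

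Other keratins and epithelial genes were read from a list of 28, of which 25 were on the array. In siSocs3 against siNonTarget 2 rose, Krt42 by 0.46 ± 0.10 (adjusted p = 0.0324) and the galectin gene Lgals3 by 1.86 ± 0.42 (adjusted p = 0.0413). Of all probe sets 2.06% were called higher. The desmosome gene Dsp fell by 1.04 on the log2 scale (adjusted p = 0.0133), 1 of 25, where 2.93% of all probe sets were called lower. Krt7, a keratin of trophoblast, read 9.10 and 9.19 on the siSocs3 arrays, 8.09 and 7.27 on siSox17, 6.15 and 7.31 on siFbxw7, 7.66 and 7.85 on siRnf31, and 6.22 and 8.13 on siNonTarget. The siSocs3 arrays were the highest, with a difference of 1.97 ± 0.58 that was not called (adjusted p = 0.0902) and was 1.01 without siNonTarget replicate 1. Krt19 gave 1.52 ± 0.70 (adjusted p = 0.26), or 0.26 without that array, where 0 of the 25 were called in limma, and the E-cadherin gene Cdh1 0.40 ± 0.26 (adjusted p = 0.42).

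Among 19 measured genes of the wider trophectoderm network, 4 rose and 1 fell in siSocs3 against siNonTarget. Of all probe sets 2.06% were called higher and 2.93% lower in this comparison. The median over the 19 was 0.41, against 0.02 over all probe sets. Eomes, the T-box gene of trophoblast stem cells and of primitive streak, rose by 1.52 ± 0.28 (adjusted p = 0.0221). The homeobox genes Rhox6 and Rhox9 rose by 1.91 ± 0.23 (adjusted p = 0.00817) and 1.54 ± 0.27 (adjusted p = 0.0196), and Sox15 by 1.03 ± 0.17 (adjusted p = 0.0164). Id2, an inhibitor of helix-loop-helix factors that marks early outer cells, fell by 1.09 (adjusted p = 0.0145), the opposite way from Eomes. In direct comparison Rhox6 was also higher than in siSox17, siFbxw7 and siRnf31, by 1.99, 2.26 and 1.71 (adjusted p = 0.00597, 0.00355 and 0.0172). Fgfr2, the receptor through which FGF4 sustains trophoblast stem cells, gave −0.55 ± 0.18 and was not called (adjusted p = 0.111). With siNonTarget replicate 1 left out 1 of the 19 was called, Rhox6 at 1.51 (adjusted p = 0.0365), and with both high-actin arrays left out 2 rose and 1 fell.

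Of 20 genes of differentiated trophoblast, 14 were on the array. Of those 2 rose in siSocs3 against siNonTarget, where 2.06% of all probe sets were called higher. The median over the 14 was 0.11, against 0.02 over all probe sets. Plac1, an X-linked gene of placental trophoblast, read 8.15 and 8.29 on the siSocs3 arrays, 6.0 and 5.65 on siSox17, 5.76 and 5.94 on siFbxw7, 5.32 and 6.13 on siRnf31, and 5.65 and 6.23 on siNonTarget. The siSocs3 arrays stood clear above the other 8, whose groups overlapped. The difference from siNonTarget was 2.28 ± 0.27 (adjusted p = 0.00785), and those from siSox17, siFbxw7 and siRnf31 were 2.40, 2.37 and 2.49, all called. The first was 1.99 and still called (adjusted p = 0.0479) without siNonTarget replicate 1. Phlda2, a maternally expressed growth regulator in the same imprinted domain as Ascl2, rose by 1.39 ± 0.19 (adjusted p = 0.0106), and gave 1.30 without that array (adjusted p = 0.0656). The spongiotrophoblast marker Tpbpa stayed between 4.05 and 4.41 on all arrays, near the bottom of the range.

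The Hippo pathway controls Tead4 activity through Yap1. Of its 18 measured genes none rose in siSocs3 against siNonTarget. The kinase gene Lats1 fell, by 0.51 on the log2 scale (adjusted p = 0.0388), 1 of 18, where 2.93% of all probe sets were called lower. The list's median was −0.11, against 0.02 over all probe sets, and −0.27 without siNonTarget replicate 1. Lats1 was not called without siNonTarget replicate 1 (adjusted p = 0.113). In siSox17, siFbxw7 and siRnf31 against siNonTarget 0 genes of the network, trophoblast, epithelial and Hippo lists were called in limma. Of all probe sets 12.8%, 5.43% and 5.52% had an unadjusted p under 0.05 there, in that order of groups. Of the 19 network genes 5, 1 and 3 did, and of the 14 trophoblast genes 3, 0 and 0. The counts were 6, 1 and 1 of the 25 epithelial genes and 7, 0 and 0 of the 18 Hippo genes.

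Markers of other cell types were read beside these values. Pluripotency markers were called beside Ascl2, Tead4 and Tfap2c: 9 of 14 rose in siSocs3 against siNonTarget, as did 2.06% of all probe sets, and 0 fell. Their summed intensity was 51159 to 54723 on the siSocs3 arrays, 40479 to 44346 on siSox17, 33431 to 39973 on siFbxw7, 32006 to 41685 on siRnf31 and 29479 to 32753 on siNonTarget, and Nanog rose by 1.54 ± 0.23 (adjusted p = 0.0134). Pou5f1, which Cdx2 represses in the embryo, was 1.11 ± 0.32 and was not called (adjusted p = 0.0904). Of 9 neural markers 6 fell, where 2.93% of all probe sets were called lower. The neural sums were 1251 to 1593 in siSocs3 and 3620 to 4661 in siNonTarget. Against siNonTarget replicate 2 alone 1 pluripotency marker, Prdm14, was called and 0 neural markers were (limma). Without both high-actin arrays 5 and 4 were called. In siSocs3 directly against siSox17, siFbxw7 and siRnf31, 1, 4 and 2 of the 14 pluripotency markers were called higher (limma). Of all probe sets 0.944%, 1.38% and 0.846% were called higher there. Prdm14 was called in each, at 0.81, 1.05 and 1.06. Of the 9 neural markers 0, 2 and 1 were called lower, where 194, 280 and 94 of 45037 probe sets were. The part of pluripotent and neural cells in the trophectoderm values was not tested.

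Markers of other tissues that use some of these genes gave 6 calls in siSocs3 against siNonTarget. Of all probe sets 2.06% were called higher and 2.93% lower there. Over all arrays the list medians were 0.11 for primitive streak, 0.35 for posterior genes and −0.11 for extraembryonic endoderm. Those of surface ectoderm and fibroblasts were 0.19 and 0.00. Without siNonTarget replicate 1 the medians were 0.03, 0.24, −0.12, 0.09 and −0.61, in that order. Primitive streak also expresses Eomes, and of its 11 markers Mixl1 and Gsc rose by 0.66 ± 0.14 and 0.83 ± 0.15, with sums of 948 to 1112 in siSocs3 and 780 to 1051 in siNonTarget. Of 10 posterior genes 1 rose, Cdx1, by 1.39 ± 0.29 (adjusted p = 0.034), with sums of 1496 to 1551 in siSocs3 and 1012 to 1342 in siNonTarget. Of 15 extraembryonic endoderm markers 0 rose and Foxa2 fell by 0.94 (adjusted p = 0.0385), with sums of 8164 to 8856 in siSocs3 and 8762 to 9836 in siNonTarget. Surface ectoderm expresses Tfap2c and Krt8, and of its 10 markers 0 were called in limma. Of these 10, 2 lay at an unadjusted p under 0.05, near the share of all probe sets, 21.0%. The surface ectoderm sums were 865 to 899 in siSocs3 and 468 to 643 in siNonTarget. Of 11 fibroblast markers 0 rose and Col1a2 and Twist1 fell by 1.45 and 1.40, with sums of 7514 to 10145 in siSocs3 and 5349 to 13632 in siNonTarget. In direct comparison Gsc was higher in siSocs3 than in siSox17, siFbxw7 and siRnf31, by 1.32, 1.19 and 1.11 (limma, adjusted p = 0.00532, 0.0076 and 0.0172). The other direct calls of these lists were lower in siSocs3. They were Msx1 (−0.99), Lama1 (−1.89) and Col4a2 (−0.82) against siFbxw7, and Vim (−1.11) against siSox17. The part of these tissues in the trophectoderm values was not tested.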

How the data were processed

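Expression in 10 samples was measured on Affymetrix 1-colour arrays; cDNA was amplified from 5 ng of total RNA and labelled with biotin, per the labels' protocols. The deposited values are intensities on a linear scale, 1 per probe set and array. The submitters' processing notes name RMA, which subtracts background, quantile-normalizes the arrays and reduces each probe set to 1 value. A shift common to most genes is lost in this step, and changes near the bottom of the range are compressed. The version of RMA is not given in the sources used here, nor is any later scaling. Array medians lay between 46.39 and 47.95.

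The log2 of each intensity was fitted with limma 3.58.1 in R 4.3.3 (lmFit, contrasts.fit, eBayes), with 5 residual degrees of freedom and 3.802 from the prior. The model had 1 mean for each of 5 groups over 45037 probe sets, after 64 control probe sets were left out; no filter on dim probe sets was applied. All tests were two-sided, and p-values were adjusted by Benjamini-Hochberg over all probe sets, separately in each of 7 contrasts, with a threshold of 0.05. Errors of differences are standard errors of this model. The precision is limited by the number of arrays. An exact permutation test cannot reach that threshold with 2 arrays a group, so none was run.

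Gene names came from the platform annotation, in which 34958 had 1 symbol, 932 had several and 9211 were not listed. The 9 genes, 11 further gene lists and the tests were chosen with earlier results of these data known. A list gene was represented by its brightest probe set. Named genes were the members; up to 5 called genes of each list in siSocs3 against siNonTarget and up to 3 in another contrast; Eomes, Fgfr2, Krt7, Krt19, Cdh1 and Pou5f1 whatever their values; the targeted genes; and the 5 genes whose log2 values correlated best with Cdx2's and with Krt8's. Alternatives were a replicate block, 2 groups alone, a further quantile normalization or median centring of the arrays, a filter on the dimmest 30% of probe sets, a trended robust prior, 1 probe set a gene, and leaving out arrays. Promoter letters are those of RefSeq on GRCm38.p6. Python 3.11.15 with matplotlib 3.10.9 drew the figures.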

Additional observations from a re-analysis of the deposited data

How the results depend on the processing

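No called difference changed direction in any alternative, and 91 estimates called in neither fit changed sign. Of 3476 alternative values for single probe sets, 357 lost a call and 43 gained one. The count of all probe sets called in siSocs3 against siNonTarget was 2248, 1147 with the 2 groups alone, 925 without siNonTarget replicate 1 and siFbxw7 replicate 1 together, and 24 to 2951 leaving out 1 array. Against siSox17 it was 619, with 1086, 1007 and 41 to 681 in the same order, and against siFbxw7 903, with 254, 307 and 89 to 1220. Against siRnf31 it was 475, with 946 without both arrays and 27 to 636 leaving out 1. In siSox17 against siNonTarget 1 was called with 1 probe set a gene and 0 to 28 leaving out 1 array. Of the 19 probe sets of the 9 genes, 5 were called in siSocs3 against siNonTarget, 1 of 9 with 1 probe set a gene, 2 without both arrays and 0 to 7 leaving out 1. Against siFbxw7 5 were called, 2 with 1 probe set a gene, 2 with the 2 groups alone, 1 without both arrays and 0 to 6 leaving out 1. Against siSox17 0 were called, 6 with the 2 groups alone, 3 without both arrays and 0 to 1 leaving out 1, and against siRnf31 0, with 3, 3 and 0 to 3. With a replicate block the 9 genes had 5 calls in siSocs3 against siNonTarget and 3 against siFbxw7, where 2 Tfap2c probe sets lost theirs. The replicate numbers did not pair the arrays: deviations of same-numbered arrays correlated between −0.14 and 0.52, above 0.1 for siNonTarget with siFbxw7 alone. Where leaving out an array moved a count, the cause was not tested beyond the loss of an array. Without either siSocs3 array, where 1 array stands for the group, the 9 genes had 0 calls against siNonTarget and against siFbxw7. Without siNonTarget replicate 1 they had 0 against siNonTarget and 5 against siFbxw7. Signal limits Elf5 and Tpbpa, which lay near the bottom of the range. The called Tead4 probe set and the 2 dimmer Ascl2 probe sets were also dim on siNonTarget, at 3.74 to 4.85. The brighter probe set of each of these genes gave a smaller difference of siSocs3 from siNonTarget.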
